A study of Homo sapiens with 10 samples.

Results

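Receptor tyrosine kinases and ephrins were examined in a human chronic myeloid leukaemia line that responds to cyclophosphamide (sensitive cells) and in its subline that withstands the drug (resistant cells). The set holds the Eph receptors, their ephrin ligands and the receptors of the ERBB, FGF, PDGF, MET, TAM, RET, neurotrophin, insulin, ROR, RYK, LTK and DDR2 groups. Members were chosen by gene symbol in the platform annotation, and only probe sets with 1 symbol were used. Of 43 genes listed, 42 had such a probe set, which gave 93 of the 12558 probe sets tested. EPHB2 was not analysed here. The comparison rests on 10 one-colour arrays, 5 of sensitive and 5 of resistant cells, all grown in tissue culture medium with no other treatment named. The labels give neither the name of the line nor the way in which resistance was obtained, and nothing in them says that the 5 samples of a group were separate cultures. What the p-values capture is thus only how much these samples vary among themselves, and that variation may be technical.

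Receptor tyrosine kinases are single-pass membrane proteins whose intracellular kinase is switched on when a ligand brings receptor chains together. Eph receptors are the largest family of them and bind ephrins, ligands that are themselves fixed to the surface of a neighbouring cell, class A through a lipid anchor and class B through a membrane-spanning segment. Signals can run into the cell that carries the receptor and into the one that carries the ephrin. In blood-forming tissue EPHB4 is known from early progenitors, and TYRO3, AXL and MERTK, the TAM receptors, are known for the clearance of dying cells and for survival signals in leukaemia cells. The fusion kinase BCR-ABL, which drives this leukaemia, is not a receptor.

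Of the 42 genes, EPHB4, MERTK and EFNA1 rose in resistant cells, INSR fell, and the other 38 had no probe set past the threshold. The 4 called probe sets are 4.3% of the 93, and 7.41% of all probe sets tested were called. By direction, 3.23% of the members were called higher and 1.08% lower, where 4.42% and 2.99% of all probe sets were. In limma 13 member probe sets had an unadjusted p under 0.05, or 14.0% against 17.9% of all. Of these 10 had higher and 3 lower values, where 1287 and 966 of all 12558 probe sets did. The groups did not overlap in 3 member probe sets (3.23%), 1 each of EPHB4, MERTK and TYRO3, and in 8.5% of all. The median log2 difference was 0.11 over the members and 0.03 over all probe sets. Calls required a Benjamini-Hochberg adjusted p under 0.05 in limma, and differences are resistant minus sensitive on the log2(signal + 114.8) scale, which understates the change of dim probe sets.

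Most of these receptors gave little signal in either line. Each array's background limit, set at the 95th percentile of the signals of 32 control probe sets that have no human target, lay between 319.7 and 739.8. On that measure 42 of the 93 member probe sets (45.2%) never exceeded the limit, which held for 25.8% of all probe sets. Bright probe sets, above the limit on at least 3 arrays of either group, made up 25 of the 93 (26.9%), where 58.5% of all were bright. The 25 bright probe sets belong to 14 genes: EPHB4, EFNA2, EFNA3, EFNA4, EFNA5, EFNB1, ERBB3, TYRO3, MERTK, NTRK3, INSR, IGF1R, LTK and RYK. A further 12 genes stayed at or below the limit on every array in every probe set, and 16 rose above it on some arrays without being bright. Among bright probe sets 3 of 25 members (12%) were called, and 11.5% of all bright probe sets were.

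The 4 genes with a call are shown with the 250 bases that RefSeq places before their start, in assembly GRCh38.p14, because these stretches lie just before the site where transcription begins. Each is written from 5′ to 3′ on the strand of the gene. Capitals mark GC boxes, the letters GGGCGG on either strand, which are sites that factors of the SP1 family can bind. Neighbouring copies may share a base.
EPHB4 at chr7:100827524-100827773 on the minus strand: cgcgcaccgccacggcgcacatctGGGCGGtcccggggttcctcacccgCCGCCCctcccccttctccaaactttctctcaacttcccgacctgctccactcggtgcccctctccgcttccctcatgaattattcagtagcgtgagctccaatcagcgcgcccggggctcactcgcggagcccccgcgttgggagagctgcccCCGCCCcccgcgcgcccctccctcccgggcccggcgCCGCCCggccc
MERTK at chr2:111898357-111898606 on the plus strand: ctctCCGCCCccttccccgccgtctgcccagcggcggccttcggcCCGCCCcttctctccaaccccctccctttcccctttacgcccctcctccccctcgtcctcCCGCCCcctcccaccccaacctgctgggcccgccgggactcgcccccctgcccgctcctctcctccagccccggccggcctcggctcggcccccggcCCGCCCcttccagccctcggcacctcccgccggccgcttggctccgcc
EFNA1 at chr1:155127626-155127875 on the plus strand: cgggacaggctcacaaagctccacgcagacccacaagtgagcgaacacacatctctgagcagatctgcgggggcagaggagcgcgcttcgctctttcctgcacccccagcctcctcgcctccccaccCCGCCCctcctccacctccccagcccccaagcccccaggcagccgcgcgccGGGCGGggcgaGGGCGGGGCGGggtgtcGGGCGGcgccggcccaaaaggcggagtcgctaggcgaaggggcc
INSR at chr19:7294415-7294664 on the minus strand: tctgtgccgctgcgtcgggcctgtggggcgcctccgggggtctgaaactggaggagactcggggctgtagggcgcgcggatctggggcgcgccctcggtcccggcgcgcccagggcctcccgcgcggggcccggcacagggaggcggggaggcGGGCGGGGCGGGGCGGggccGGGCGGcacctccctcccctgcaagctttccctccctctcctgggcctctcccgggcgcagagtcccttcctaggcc
All 4 windows were rich in G and C, with 72.8% in EPHB4, 78.8% in MERTK, 73.2% in EFNA1 and 78.4% in INSR, where the median over 35116 windows of the same length was 58%. They held 29, 25, 24 and 28 CpG pairs in the same order, against a median of 11. The GC box was found 4 times each in EPHB4, MERTK and INSR and 5 times in EFNA1, and 42.6% of all windows hold it at least once. The CCAAT box (CCAAT, either strand) was found in EPHB4 alone of the 4, and in 32% of all windows. A further 4 motifs, searched on both strands, were in none of the 4 windows. Of all windows, 10.7% hold the TATA box TATAAA, 9.17% hold a GATA site written as AGATAA, 6.34% hold the E box CACGTG and 6.57% hold a STAT5 site written as TTCNNNGAA. INSR, the gene that fell, and the 3 that rose all had windows rich in G and C with GC boxes, and the CCAAT box set EPHB4 apart. Whether these features bear on the differences was not tested.

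EPHB4, a receptor that pairs with ephrin-B2, went from background to a measurable signal in resistant cells. Its only probe set gave 155, 375, 152, 402 and 211 on sensitive arrays 1 to 5 and 1295, 953, 1435, 1185 and 1621 on resistant arrays 1 to 5. Every resistant array was above its background limit, every sensitive array was below it, and the groups did not overlap. The means were 259 ± 121 and 1298 ± 253 (SD, n = 5), a log2 difference of 1.96 (SE 0.24, 95% interval 1.43 to 2.49, limma adjusted p = 0.000252). Because sensitive cells were at background, the change is a bound: resistant cells were at least 2.64-fold higher against the limit. The exact two-sided permutation p was 0.00794, the smallest that 5 arrays against 5 can give. This call held under the other 18 settings fitted with limma. The permutation test adjusted over all probe sets called none, and its smallest adjusted p was 0.0934.

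The other Eph receptors were near background in both lines. None of the 8 EphA probe sets, which stand for EPHA1, EPHA2, EPHA3, EPHA4, EPHA5 and EPHA7, was bright, and 6 of them were below the limit on all 10 arrays. Only EPHA1 and EPHA2 passed the limit, each on 1 array. Their log2 differences ran from -0.57 for EPHA3 (95% interval -1.40 to 0.26) to 0.51 for EPHA1 (-0.43 to 1.45), and the limma adjusted p-values were between 0.508 and 0.921. In class B, EPHB1 was below the limit throughout, EPHB3 passed it on 1 sensitive array and EPHB6, whose kinase is inactive, on 1 resistant array. The log2 differences of these 3 were 0.25, 0.30 and 0.31, each with an interval that spans 0. Neither a rise nor a fall of these receptors was detectable at these signals.

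**Figure D1:**
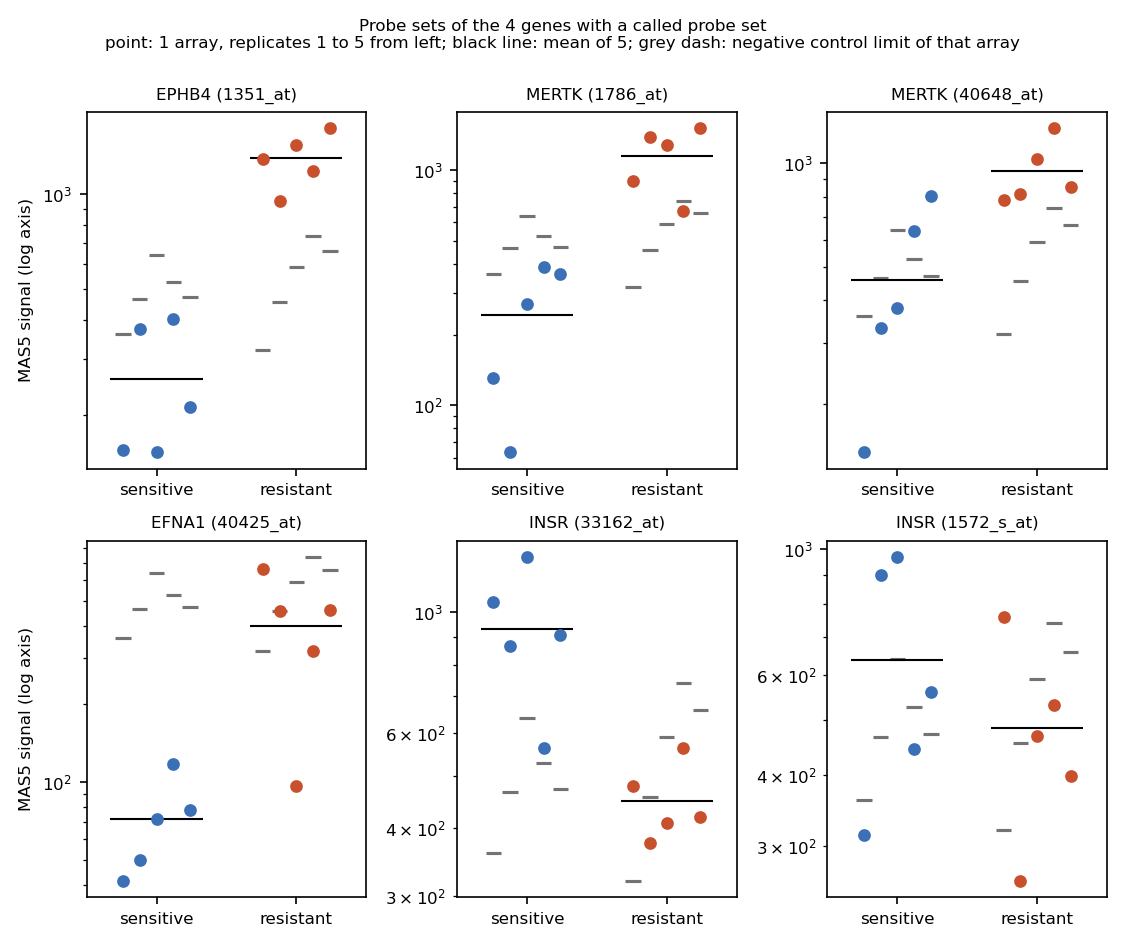
MAS5 signal on a log axis for the 6 probe sets of EPHB4, MERTK, EFNA1 and INSR, with 1 point per array, the mean of 5 as a black line and each array's background limit as a grey dash. EPHB4 and the called probe set of MERTK (mean 1147 in resistant cells) separate the groups completely, EFNA1 lies mostly under the limit even in resistant cells, and the 2 INSR probe sets differ in how far they fall.

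EFNA1, an ephrin of class A that binds EPHA2 and other EphA receptors, rose but remained dim. Its only probe set gave 41.4, 50, 72, 117 and 78.3 on sensitive arrays and 663, 456, 96.6, 320 and 463 on resistant arrays. Resistant replicate 3, at 96.6, lay inside the sensitive range, and resistant replicate 1 alone was above its limit. The means were 71.8 ± 29.6 and 400 ± 209 (SD, n = 5), with a log2 difference of 1.35 (SE 0.31, 95% interval 0.68 to 2.03, limma adjusted p = 0.0183). The mean of resistant cells against the limit of sensitive arrays gave no fold above 1. With all signals under the limit raised to the limit, the difference was 0.34 and the adjusted p was 0.629. The call was also lost without resistant replicate 2 or 5 or sensitive replicate 1 or 2, at adjusted p-values of up to 0.0505.

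The remaining class A ephrins had no call, and EFNA3 was above background on every array of both lines in 1 of its probe sets. EFNA3 was the best measured: the first of its 2 probe sets gave 2378, 1937, 2542, 2792 and 2722 on sensitive arrays and 2783, 4765, 2766, 2881 and 3680 on resistant arrays. All 10 arrays were above the limit, and the highest sensitive arrays reached the lowest resistant ones. The log2 difference was 0.41 (SE 0.20, 95% interval -0.03 to 0.85, limma adjusted p = 0.32), and the second probe set was 596 ± 108 and 773 ± 395 (SD, n = 5; log2 difference 0.21, adjusted p = 0.802). EFNA2 was, in its bright probe set, 969 ± 220 in sensitive and 949 ± 443 in resistant cells (SD, n = 5; log2 difference -0.15). EFNA4 was 446 ± 277 and 500 ± 254, above the limit on 2 sensitive and 3 resistant arrays, and the brighter probe set of EFNA5 was 487 ± 216 and 769 ± 547. Their adjusted p-values were 0.892, 0.889 and 0.809.

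Of the class B ephrins EFNB1 was present in both lines and EFNB2 was not above background. EFNB1, which binds EphB receptors, had 3 bright probe sets with log2 differences of 0.17, 0.19 and 0.27 (limma adjusted p = 0.873, 0.813 and 0.774), and the second of these was above the limit on all 10 arrays at 867 ± 288 and 1015 ± 370. EFNB2, the ligand of EPHB4, was at or below the limit on every array of both lines in 2 probe sets, with a highest signal of 459. EFNB3 was 409 ± 203 and 402 ± 318, above the limit on 2 arrays of each group (log2 difference -0.15, adjusted p = 0.926). Resistant cells thus gave a signal for EPHB4 and none above background for this ligand. A ligand on other cells is outside what these arrays measure.

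**Figure D2:**
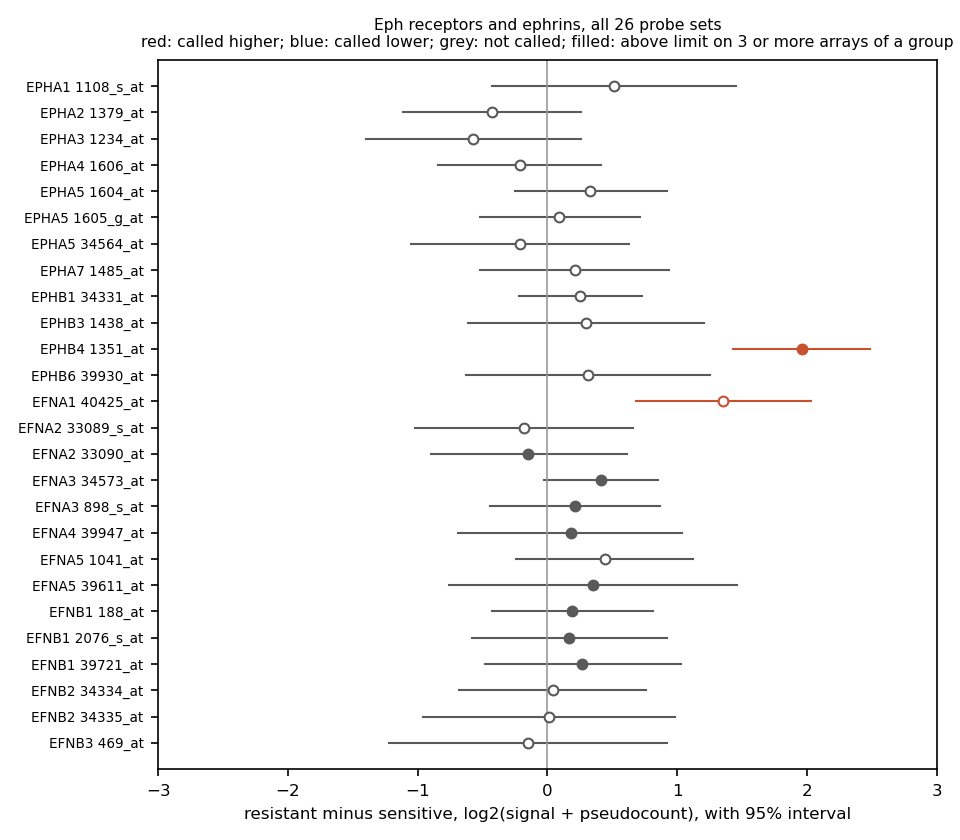
Resistant minus sensitive differences on the log2(signal + pseudocount) scale with 95% intervals for the 26 probe sets of Eph receptors and ephrins, filled where a probe set was bright. EPHB4 at 1.96 and EFNA1 at 1.35 are the 2 called differences, and EFNA1 is not bright.

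MERTK and TYRO3 of the 3 TAM receptors gave clear signals, and MERTK rose. In the first of its 2 probe sets MERTK gave 131, 63.2, 270, 386 and 361 on sensitive arrays and 897, 1387, 1272, 672 and 1509 on resistant arrays. No sensitive array was above the limit, 4 of 5 resistant arrays were, and the groups did not overlap. The means were 242 ± 141 and 1147 ± 351 (SD, n = 5), the log2 difference was 1.88 (SE 0.32, 95% interval 1.18 to 2.58, limma adjusted p = 0.0029), and the bound against the limit was at least 2.27-fold. The second MERTK probe set gave 145, 332, 379, 637 and 805 on sensitive arrays and 782, 813, 1028, 1264 and 854 on resistant arrays. There 2 sensitive arrays were above the limit, sensitive replicate 5 lay inside the resistant range, and the difference was smaller and not called (log2 difference 1.00, SE 0.31, 95% interval 0.32 to 1.68, adjusted p = 0.084). Without sensitive replicate 5 it was 1.20 (adjusted p = 0.0316).

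TYRO3 was high in both lines, and its differences did not pass the threshold. The first of its 3 probe sets gave 5441, 6379, 3705, 6202 and 5884 on sensitive arrays and 9070, 9595, 7370, 7130 and 9052 on resistant arrays. All resistant arrays were above all sensitive arrays (exact permutation p = 0.00794), and the log2 difference was 0.62 (SE 0.20, 95% interval 0.19 to 1.04, limma adjusted p = 0.0895). The adjusted p passed the threshold under 3 settings, at 0.0201 with an intensity trend in eBayes, 0.0245 with the 50th percentile as pseudocount and 0.0414 after dim probe sets were removed. Among the limma settings it was highest, at 0.337, with arrays scaled to a common median. The second probe set had a difference of 0.59 (SE 0.27, adjusted p = 0.277), and there sensitive replicate 3 was far under the others at 2155 while the other 4 were between 4870 and 5866. The third varied from 202 to 3075 among sensitive arrays and had a log2 difference of 0.88 (95% interval -0.27 to 2.03). AXL was not bright in any of its 3 probe sets, which passed the limit on 2 arrays in all, and their differences were -0.53, -0.18 and 0.06 (lowest adjusted p = 0.663).

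GAS6 and protein S are soluble bridging ligands of TAM receptors, protein S of MERTK and TYRO3. PROS1, which encodes protein S, was 1183 ± 193 in sensitive and 2063 ± 458 in resistant cells (log2 difference 0.73, SE 0.20, limma adjusted p = 0.0446), a call lost under 12 of 18 other limma settings, among them the omission of any 1 array other than resistant or sensitive replicate 4 (adjusted p of up to 0.114). GAS6 was above the limit on 8 of 10 arrays in the second of its 3 probe sets, at 1061 ± 529 and 1055 ± 439 (log2 difference 0.11, adjusted p = 0.95), and its 2 other probe sets were not called.

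Of the insulin receptor family IGF1R was above background on every array in 1 probe set, and INSR fell in 1 of its 2 probe sets, to signals near the limit. INSR encodes the insulin receptor, and the called probe set gave 1046, 867, 1265, 562 and 909 on sensitive arrays and 479, 376, 410, 562 and 419 on resistant arrays. All sensitive arrays and 1 resistant array were above the limit, and the groups met at 562, in replicate 4 of each. The means were 930 ± 258 and 449 ± 73.2 (SD, n = 5; log2 difference -0.86, SE 0.21, 95% interval -1.32 to -0.40, limma adjusted p = 0.0264). The other probe set gave 313, 900, 969, 444 and 561 against 759, 260, 468, 531 and 399, above the limit on 3 sensitive arrays and 1 resistant array, with overlapping groups and a log2 difference of -0.30 (adjusted p = 0.695). The INSR call was lost under 11 of 18 other settings, among them the omission of any 1 array other than sensitive or resistant replicate 4 (adjusted p of up to 0.0708). With signals raised to the limit its difference was not called at an adjusted p of 0.124.

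IGF1R, the receptor for insulin-like growth factors, was not called in any of 3 probe sets. The last of them gave 1891, 1457, 2142, 1642 and 1751 on sensitive arrays and 475, 2107, 1273, 824 and 1555 on resistant arrays. Resistant arrays spread widely and included both the lowest and nearly the highest value. The log2 differences of the 3 probe sets were -0.48, -0.76 and -0.61, with 95% intervals of -1.25 to 0.29, -1.73 to 0.22 and -1.30 to 0.09 (limma adjusted p = 0.556, 0.429 and 0.359). Of the ligands, IGF2 was above the limit on 9 arrays at 1029 ± 155 and 929 ± 372 (log2 difference -0.19), IGF1 passed it in 1 of 4 probe sets, and INS on 3 arrays. None of them was called.

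RYK, a receptor for WNT ligands whose kinase is inactive, had lower values in resistant cells without a call. The bright one of its 2 probe sets gave 3192, 2409, 1873, 2361 and 1846 on sensitive arrays and 2108, 1298, 1358, 1440 and 1113 on resistant arrays. Resistant replicate 1 alone lay inside the sensitive range, and the log2 difference was -0.64 (SE 0.22, 95% interval -1.11 to -0.17, limma adjusted p = 0.115). The other probe set, below the limit on all arrays, had a difference of -0.65 (adjusted p = 0.173). No call was made under the 18 other settings fitted with limma, with adjusted p-values for the bright probe set from 0.0562 to 0.254. WNT5A, a ligand of RYK and of ROR2, was below the limit on every array in 2 probe sets, as were ROR1 and ROR2 themselves.

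**Figure D3:**
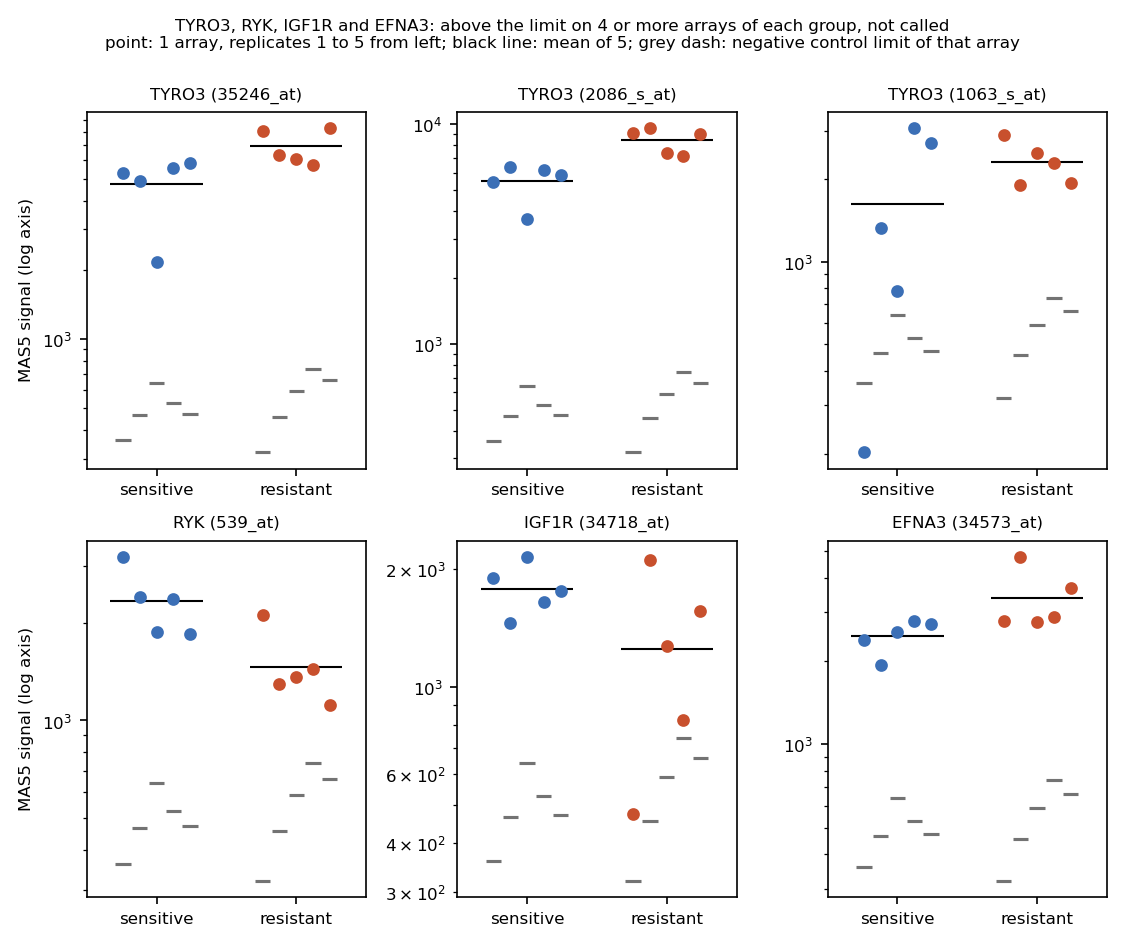
MAS5 signal on a log axis for 3 TYRO3 probe sets and for 1 probe set each of RYK, IGF1R and EFNA3, with 1 point per array, the mean of 5 as a black line and each array's limit as a grey dash. None was called in limma. The groups do not overlap in the TYRO3 probe set with a resistant mean of 8443, and sensitive replicate 3 is low, at 2155, in the one with a resistant mean of 6904.

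The ERBB receptors, which bind ligands of the epidermal growth factor family, were at or near background. EGFR was below the limit on all 10 arrays in 2 probe sets, with a highest signal of 254, and so was ERBB4. ERBB2 passed the limit on 4 arrays over its 3 probe sets, whose log2 differences were 0.41, 0.42 and 0.53 (lowest limma adjusted p = 0.328). Of 7 ERBB3 probe sets 1 was bright, at 606 ± 237 and 635 ± 239 (log2 difference 0.06, adjusted p = 0.954), a difference whose sign turned under both other scalings of the arrays, to -0.05 and -0.04. Another reached an unadjusted p of 0.0284 at signals that were below the limit on every array.

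The FGF and PDGF receptors and MET were not bright in any probe set. FGFR3 gave 28.1, 110, 45.6, 69.6 and 64.8 on sensitive arrays and 464, 76.1, 68, 616 and 544 on resistant arrays. The resistant values fall into 3 high and 2 low arrays, and 1 of them was above its limit (log2 difference 1.17, SE 0.40, limma adjusted p = 0.123). FGFR4 was 235 ± 201 and 527 ± 185, above the limit on 1 and 2 arrays (log2 difference 1.00, SE 0.35, adjusted p = 0.13). The 6 FGFR2 probe sets had differences between -0.32 and 0.24. PDGFRA, a frequent target of tyrosine kinase inhibitors, passed the limit on 3 sensitive arrays over 4 probe sets and on no resistant array, with differences from -0.55 to 0.86 (lowest adjusted p = 0.364), and PDGFRB was below the limit throughout. MET, the receptor of hepatocyte growth factor, passed the limit on 2 arrays, with differences from -0.60 to 0.70 in 4 probe sets (lowest adjusted p = 0.298), and MST1R was below it on all arrays.

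Among the remaining receptors LTK and NTRK3 were bright. LTK, a relative of the kinase ALK, was 888 ± 373 and 797 ± 276 in one probe set and 818 ± 211 and 995 ± 459 in the other (log2 differences -0.12 and 0.11, limma adjusted p = 0.887 and 0.935). NTRK3, the receptor of neurotrophin 3, had 2 bright probe sets among 5, with log2 differences of 0.86 (95% interval -0.02 to 1.75, adjusted p = 0.296) and 0.07 (adjusted p = 0.945). Its other 3 had 0.67, -0.03 and -0.77, so the probe sets of this gene do not point one way. NTRK2 and RET passed the limit on 2 arrays and 1 array over 5 and 4 probe sets, and the collagen receptor DDR2 on 1, all without a call.

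**Figure D4:**
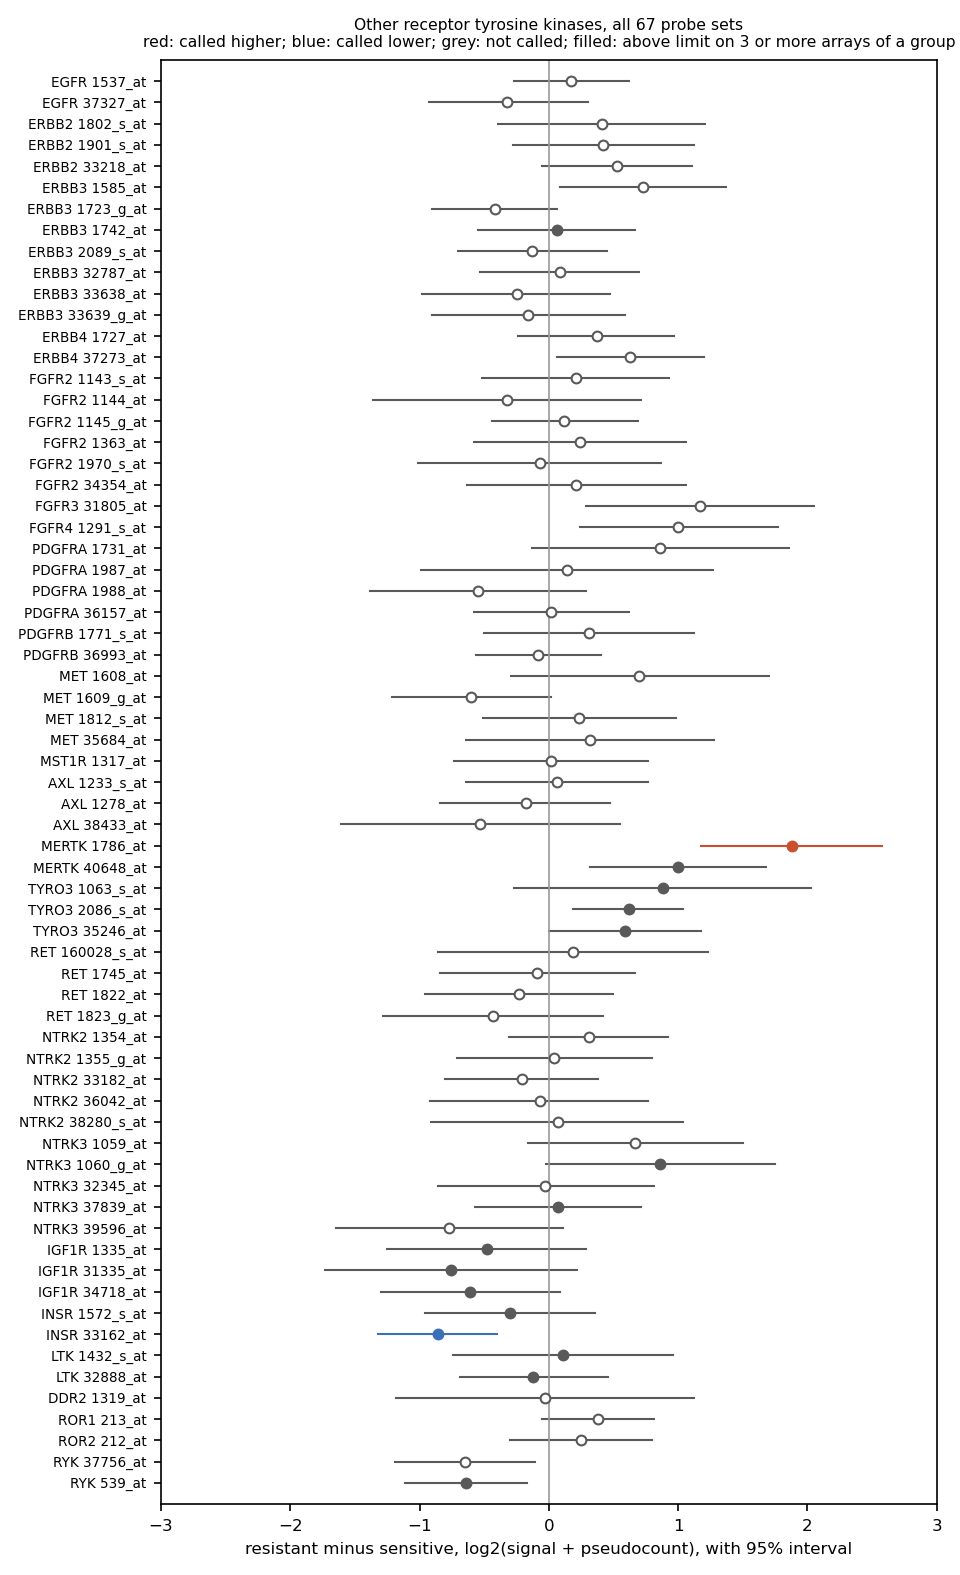
Resistant minus sensitive differences on the log2(signal + pseudocount) scale with 95% intervals for the 67 probe sets of receptors outside the Eph family, filled where a probe set was bright. MERTK at 1.88 is the called rise and INSR at -0.86 the called fall, and most intervals span 0.

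Genes that act with these receptors were counted by the brightest probe set of each gene, for which the share called over 8226 genes was 4.94% higher and 3.46% lower. With only these probe sets fitted in limma, 1632 of the 8226 had an unadjusted p under 0.05. Over all 12558 probe sets that share was 17.9%. Of 28 ligands of the member receptors 3 rose and 2 fell (10.7% and 7.14%). HBEGF, a ligand of EGFR and ERBB4, rose from 468 ± 257 to 1599 ± 683 (log2 difference 1.60, limma adjusted p = 0.0117), and PDGFA rose by 0.93 (adjusted p = 0.0354, lost under 11 of 18 other settings, among them the omission of any 1 array other than resistant replicate 4 or sensitive replicate 3), in addition to PROS1. EREG and BDNF fell by 1.68 and 1.34 (adjusted p = 0.0012 and 0.0154), but each was above the limit on 2 sensitive arrays only, and with signals raised to the limit the differences were 0.07 and -0.14. Of 13 other receptor tyrosine kinases TEK and FLT3 rose (15.4%) and 0 fell, also at an unadjusted p under 0.05 in limma. TEK, the angiopoietin receptor, was at least 3.09-fold higher, and FLT3 was above the limit on 1 resistant array (437 ± 39.3 against 97.1 ± 31.5). With signals raised to the limit the FLT3 difference was 0.24 and not called (adjusted p = 0.786). Of the genes named from these lists PDGFA, BDNF, TEK and FLT3 were each called in 1 of 2 probe sets.

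Within the cell, 3 of 24 adaptors and effectors fell (12.5%) and 0 rose. An unadjusted p under 0.05 in limma was found for 1 with higher and 4 with lower values, together 20.8% of the list. PIK3CB, a catalytic subunit of phosphoinositide 3-kinase, fell from 6262 ± 1220 to 3074 ± 595 (limma adjusted p = 0.00748). PLCG2, a phospholipase, fell by 0.94 (adjusted p = 0.00404), and HRAS by 0.96 (adjusted p = 0.0363, lost without any 1 array other than sensitive replicate 4, up to 0.0918). PLCG2 and HRAS were each called in 1 of 2 probe sets. The median over this list was -0.19. Of 22 negative regulators 1 rose (4.55%, where 4.94% of all genes were called higher) and 0 fell. It was SOCS1, an inhibitor of cytokine and insulin receptor signalling, from 784 ± 286 to 3776 ± 1380 (log2 difference 2.08, limma adjusted p = 0.00171). An unadjusted p under 0.05 in limma was found for 3 with higher and 2 with lower values, together 22.7% of the list. SOCS1 was called in 1 of 2 probe sets. SOCS3, DOK1 and PTPRB were not called by their brightest probe set, but each had 1 other probe set called, of 2, 3 and 3.

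Of 29 effectors of Eph receptors and ephrins 4 rose (13.8%) and 1 fell (3.45%). FYN and YES1 are SRC family kinases that Eph and ephrin-B signalling engages. FYN was at least 10.7-fold higher, and YES1 rose from 2323 ± 771 to 10373 ± 3916 (log2 difference 2.06, limma adjusted p = 0.00185). CHN1, a RAC inhibitor that acts after EphA receptors, rose by 1.64 (adjusted p = 0.014), and the adaptor gene NCK1 by 0.71 (adjusted p = 0.0273, lost under 8 of 18 other settings, among them without replicate 2, 3 or 5 of either group, up to 0.0787). SDCBP, a scaffold protein that binds the tail of B ephrins, fell by 0.78 (adjusted p = 0.0205), a call lost without sensitive replicate 1 or 2 (up to 0.0561). Calls were made in 2 of 4 FYN probe sets and in 1 of 2 for NCK1. ABL1 was not called by its brightest probe set, in which the groups did not overlap (log2 difference 0.58, limma adjusted p = 0.0738). Of its 6 probe sets 3 were called.

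Lineage markers, each taken by its brightest probe set, also differed between the lines. Of 11 granulocytic markers 10 were called lower, and their summed signal was 211254 to 505067 on sensitive and 2116 to 3681 on resistant arrays. KLF1 and TAL1 of 5 erythroid markers and ITGA2B of 6 megakaryocytic markers were called higher, with sums of 6305 to 14014 against 22053 to 32820 and of 1488 to 3003 against 12297 to 20326. ITGA2B alone, at 1169 ± 337 and 13396 ± 3366, made up most of the megakaryocytic sum in resistant cells. GP9, PF4, PPBP and GP1BA were below the limit on all arrays. In these probe sets ITGB3, PF4 and GP1BA had differences of -0.63, -0.03 and -0.60 without a call. Another of the 3 probe sets of ITGB3 was called. PTPRC, LYL1 and CD34, markers of blood cells, were bright in both lines, SPI1 was above the limit on sensitive arrays only, and KIT was below the limit on every array. EPCAM, KRT18, KRT19, KRT5 and CLDN4 of 8 epithelial markers, 3 of 5 endothelial and 4 of 6 neural markers were below the limit on all arrays, and none of these 19 was called in limma by its brightest probe set, with 1 at an unadjusted p under 0.05. Of the other epithelial markers KRT8, at 4837 ± 1598 and 4404 ± 741, and MUC1, at 1139 ± 141 and 1309 ± 265, were above the limit on every array. CDH1 passed it on 3 sensitive and 2 resistant arrays. Another of the 6 probe sets of MUC1 was called. Of 6 fibroblast markers COL1A2 and COL3A1 were below the limit on all arrays and LUM fell by 2.07. The 5 sensitive arrays were not alike in these markers. EPX gave 4885, 3585 and 4039 on sensitive replicates 1 to 3 and 40734 and 38859 on replicates 4 and 5. CLC and GATA1 split likewise, GATA1 at 431, 510 and 968 and then at 3800 and 3650. AZU1 and CTSG were instead highest on replicates 1 and 2. MERTK and EFNA1 also had their highest sensitive signals on replicates 4 and 5, and EPHB4 and INSR did not. For EFNA1 and the called MERTK probe set these signals were under the limit. For the second MERTK probe set they were above it, at 637 and 805. Among members without a call, 1 NTRK3 probe set gave 143, 150 and 130 and then 675 and 772. The third TYRO3 probe set gave 202, 1333 and 782 and then 3075 and 2707. RYK and IGF1R, in their brightest probe sets, were instead highest on replicates 1 and 3. The cause was not tested. The part of the lineage changes between the lines in the results for EPHB4, MERTK, EFNA1 and INSR was not tested.

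The arrays were of like quality in both groups. The share of probe sets above the limit was 52.7% to 59.1% on sensitive and 51.0% to 61.3% on resistant arrays, and GAPDH control signals at the 3′ end over those at the 5′ end were 0.833 to 0.921 and 0.801 to 0.968. The Pearson correlation between arrays, taken across probe sets (no independent replicates), was 0.925 to 0.960 within sensitive, 0.927 to 0.957 within resistant and 0.883 to 0.923 between groups. Between 18 and 30 member probe sets were above the limit on an array, and the highest number, on resistant replicate 1, came with the lowest limit of 319.7.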

How the data were processed

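The deposited values are MAS5 signals, a linear intensity per probe set and array. MAS5 is named in the submitters' processing notes. Its version and settings are not given in these sources. The 2% trimmed mean was 2501.33 to 2501.51 on all arrays, so the authors' values already shared a common mean. Their medians still differed, at 550.0 to 710.9 on sensitive and 578.9 to 775.3 on resistant arrays. With arrays scaled to a common median, 438 probe sets were called higher and 423 lower, where the fit used here called 555 and 376. Of 12625 probe sets 67 controls were left out. Log2(signal + 114.8), with the 20th percentile of all signals as pseudocount, was fitted without covariate in limma 3.58.1 (lmFit, eBayes; R 4.3.3), and p-values were adjusted by Benjamini-Hochberg over 12558 probe sets. Intervals of 95% come from that fit, and bounds ("at least N-fold") compare mean log2 signals with the control limit, which was set after the data were seen. Groups came from the sample titles.

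Names follow the platform annotation, in which 10943 probe sets have 1 symbol, 545 several and 1070 none; names outside the member list were updated through Entrez identifiers to assembly GRCh38.p14 (10934 matched). Where a list gene had several probe sets, the one with the highest mean log2 signal stands for it. On simulated data with this design (12558 probe sets, 200 of them changed), the test found 35% of log2 changes of 1 and 90% of those of 2. Genes described in full were those with a called or bright probe set, and at most 6 called genes of each accompanying list. Members and lists were chosen with earlier results of these data known. Alternatives changed the pseudocount, scaling, filter, variance prior, test, replicate block and the arrays used, and 1, the floor at the limit, was added after the data were seen. The number of arrays limits the precision.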

Additional observations from a re-analysis of the deposited data

Results flagged for a closer look

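In 7 of 92 groups of 5 arrays examined, 1 array lay far from the other 4 of its group; chance alone marks about 1 group in 20. Resistant replicate 1 was low for LTK in the second probe set, at 203 where the others were 1065 to 1387, and for EFNA2 in the bright probe set, at 256 where the others were 943 to 1486. Without it the EFNA2 difference was 0.20. Sensitive replicate 3 was low for TYRO3 in the second probe set, at 2155 where the others were 4870 to 5866, and for EFNA5 in the bright probe set, at 134 where the others were 486 to 718. Among genes that act with the receptors, HRAS was low on resistant replicate 4, at 654 against 794 to 844, and SDCBP on sensitive replicate 5, at 13640 against 18794 to 20233. ITGA2B was high on resistant replicate 5, at 19302 against 11190 to 12718.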

How the results depend on the processing

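The rises of EPHB4 and of MERTK in its first probe set kept their direction and their call under all 18 other limma settings, with differences of 1.09 to 2.27 and 1.00 to 2.25. The count of member probe sets called higher was 3, and 5 with the 50th percentile as pseudocount; without single arrays it ranged from 2 to 4. The count called lower was 1, and 0 with an intensity trend in eBayes, with the replicate block and with signals raised to the limit; without single arrays it was 0 to 1. The exact permutation test called 0 of 12558 probe sets, with a smallest adjusted p of 0.0934 and 2246 probe sets, 13 of them members, at an unadjusted p under 0.05. Of 4 member genes called, 3 were called with the brightest probe set per gene (MERTK was lost) and 3 with the mean of probe sets (INSR was lost). The labels do not say that replicate numbers pair the arrays. Correlations of deviations were 0.009 to 0.123 over 5 pairs, 1 of them above 0.1, and 4 of 10 arrays correlated best with their own number. Such values do not settle whether the numbers pair the arrays, and the block was fitted as an alternative only. With the replicate block 2 member probe sets were called higher and 0 lower, and 794 of all probe sets where the fit without it called 931. The named genes whose call was lost with the block were EFNA1 (adjusted p = 0.05 after rounding, just over the threshold), INSR (0.0819), HBEGF (0.0576), PDGFA (0.0767), PROS1 (0.120), BDNF (0.0596), NCK1 (0.0888) and SDCBP (0.0767).

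Differences changed sign in these cases, of which EREG alone was called. With arrays scaled to a common median the second LTK probe set was -0.02, the bright ERBB3 one -0.05 and the second NTRK3 one -0.03. With quantile normalization ERBB3 was -0.04 and NTRK3 -0.03. With signals raised to the limit the INSR probe set that was not called was 0.02, and EREG, called otherwise, 0.07. Without single arrays the ranges were -0.05 to 0.51 for the second and -0.28 to 0.08 for the first LTK probe set, -0.08 to 0.22 for ERBB3, -0.05 to 0.38 for the first EFNB1 probe set, -0.33 to 0.20 for EFNA2, -0.13 to 0.19 for NTRK3, -0.02 to 0.39 for EFNA4 and 0.00 to 0.47 for the second EFNA3 probe set. The cause was not tested.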

Other observations

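A probe set that the annotation gives to FIP1L1 and PDGFRA together, and which therefore stands for no single gene, was below the limit on all 10 arrays, at 194 ± 85.9 in sensitive and 204 ± 179 in resistant cells (SD, n = 5; log2 difference -0.06, SE 0.33).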
